A study of Mus musculus with 12 samples.

Results

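The mitochondrial carriers of the Slc25 family were followed in mouse liver by microarray. Members were the genes whose probe sets carry a single gene symbol made of Slc25a and a number in the platform annotation, each represented by its probe set with the highest mean log2(signal + 16) over all 12 arrays. This gave 44 genes out of 18193 with a probe set of their own, with 93 probe sets between them. Of the 44, 37 were tested because the probe set was above its array's median signal on at least 2 of the 12 arrays, as were 14069 of all genes. The other 7 did not reach that mark, called the dim level below. Slc25a21, Slc25a43 and Slc25a52 have no probe set of their own in the annotation and are not analysed here.

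The livers came from female mice aged 8 to 12 weeks that all carried floxed alleles of Yap1 (YAPfl/fl). Yap1 encodes YAP, the transcriptional co-activator restrained by the Hippo kinase cascade. KO mice received AAV8.TBG.PI.Cre.rBG, a virus in which the hepatocyte promoter TBG drives Cre, so that other liver cells should keep the gene. WT mice received AAV8.TBG.PI.eGFP.WPRE.bGH8, which expresses GFP instead. Both genotypes were given TCPOBOP, which activates the nuclear receptor CAR and makes mouse hepatocytes divide, once by gavage in corn oil at 3 mg/kg, 10 days after the virus. Each genotype, KO and WT, has a pair of arrays from day 0, a single array of a pool from day 1 and 3 arrays from day 2. Day 0 mice had the virus alone, and no later group went without the drug, so TCPOBOP, gavage, oil and time cannot be told apart. The labels do not say that replicates were separate mice, so p-values measure the spread between these samples, which may be technical. The brighter Yap1 probe set read 449.6 to 796.7 on the 6 KO arrays and 999.2 to 1306.3 on the 6 WT arrays, without overlap (log2 difference of -0.99, exact permutation test of genotype within days, two-sided p = 0.00833, the smallest its 240 arrangements allow).

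Slc25 proteins are small membrane-spanning carriers, nearly all in the mitochondrial inner membrane, that let chosen metabolites across an otherwise tight barrier. They exchange ADP for ATP, bring in phosphate, iron, glutathione, NAD and coenzyme A, and move the amino acids and organic acids that link mitochondria to the cytosol. In the liver they connect the urea cycle, gluconeogenesis, fatty acid oxidation and lipid synthesis to mitochondrial metabolism.

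Most of the 37 members tested were not called in any comparison. The members called in each comparison are counted below beside the share of all genes. At day 2 both genotypes had less Slc25a22 (a glutamate carrier), more Slc25a37 (mitoferrin-1, which brings in iron) and more Slc25a51 (the NAD carrier) than at day 0. Slc25a25, a calcium-regulated carrier of ATP-Mg and phosphate, fell 5.81-fold in KO livers. In WT livers it was 2.12-fold lower at day 2 without a call, and the difference between the changes was not called either. Its other probe sets past the dim level had log2 changes of 0.08 and -1.48 in KO livers. Slc25a30, a relative of the uncoupling proteins also called KMCP1, rose 2.83-fold in WT livers and had a log2 change of -0.31 in KO livers (adjusted p = 0.491), and it was the only 1 of the 37 with a called difference between the changes in KO and WT livers.

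RefSeq promoter sequences (build GRCm38.p6) were available for 34 of the 44 members, 43 promoters in all. The files do not name a build, and the positions printed are those of the RefSeq table. The 250 bases before the start are printed for Slc25a30, the member whose change differed between genotypes, for Slc25a25, whose fall in KO livers was the largest among the members, and for Slc25a47, which rose in WT livers. They run 5′ to 3′ on the gene's strand, with matches to the motifs searched in capitals. Those motifs, read on both strands, were CATTCC (bound by TEAD factors, the DNA-binding partners of YAP), CACGTG (the E-box), TGACGTCA (the full cAMP response element), its core TGACG, which overlaps TGACGTCA, and TGACCT (a nuclear receptor half-site).
Slc25a30, chr14:75787038-75787287, minus strand: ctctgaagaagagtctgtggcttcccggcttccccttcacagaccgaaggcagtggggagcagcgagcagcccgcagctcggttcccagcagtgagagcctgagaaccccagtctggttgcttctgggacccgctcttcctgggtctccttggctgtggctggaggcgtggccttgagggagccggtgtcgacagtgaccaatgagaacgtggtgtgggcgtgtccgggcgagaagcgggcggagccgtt
Slc25a25, chr2:32451471-32451720, minus strand: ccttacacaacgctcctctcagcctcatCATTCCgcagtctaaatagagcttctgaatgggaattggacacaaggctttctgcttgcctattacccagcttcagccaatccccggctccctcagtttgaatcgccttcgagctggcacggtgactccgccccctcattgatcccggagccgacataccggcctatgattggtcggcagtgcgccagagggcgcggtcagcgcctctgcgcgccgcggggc
Slc25a25, chr2:32424067-32424316, minus strand: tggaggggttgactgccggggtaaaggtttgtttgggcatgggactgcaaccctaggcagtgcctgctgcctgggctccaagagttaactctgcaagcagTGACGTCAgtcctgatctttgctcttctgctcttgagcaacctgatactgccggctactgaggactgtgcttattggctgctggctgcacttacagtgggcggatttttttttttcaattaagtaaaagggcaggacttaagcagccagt
Slc25a47, chr12:108850879-108851128, plus strand: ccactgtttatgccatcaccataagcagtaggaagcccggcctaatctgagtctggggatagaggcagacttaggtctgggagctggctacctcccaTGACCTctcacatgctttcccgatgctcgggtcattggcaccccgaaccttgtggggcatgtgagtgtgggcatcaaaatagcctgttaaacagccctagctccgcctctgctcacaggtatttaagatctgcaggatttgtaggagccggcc

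The upper Slc25a25 promoter holds CATTCC 222 bases before its start, and the lower holds TGACGTCA 150 bases before its start. A further Slc25a25 promoter is not shown. The Slc25a47 promoter holds TGACCT 153 bases before its start, and the Slc25a30 window holds none of the motifs. CATTCC was in 18.6% of the members' promoters (8 of 43), against 12.6% of all 32851 mouse promoters of that length. For CACGTG the shares were 18.6% of the members' promoters and 6.02% of all, for TGACGTCA 4.65% and 1.55%, for TGACG 25.6% and 17.8%, and for TGACCT 9.30% and 14%. The members' promoters were also richer in G and C, with a median of 58% against 52.4% in all promoters, and the part of this in these shares was not tested. A match describes letters in the window and says nothing of binding. Among the other members named below, CATTCC is also in promoters of Slc25a16 and Slc25a20, TGACG in those of Slc25a16 and Slc25a28, and TGACCT in that of Slc25a39. The promoters of Slc25a22 and Slc25a29 hold none of the motifs. Slc25a2, Slc25a37 and Slc25a51 had no promoter sequence and were not searched.

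**Figure D1:**
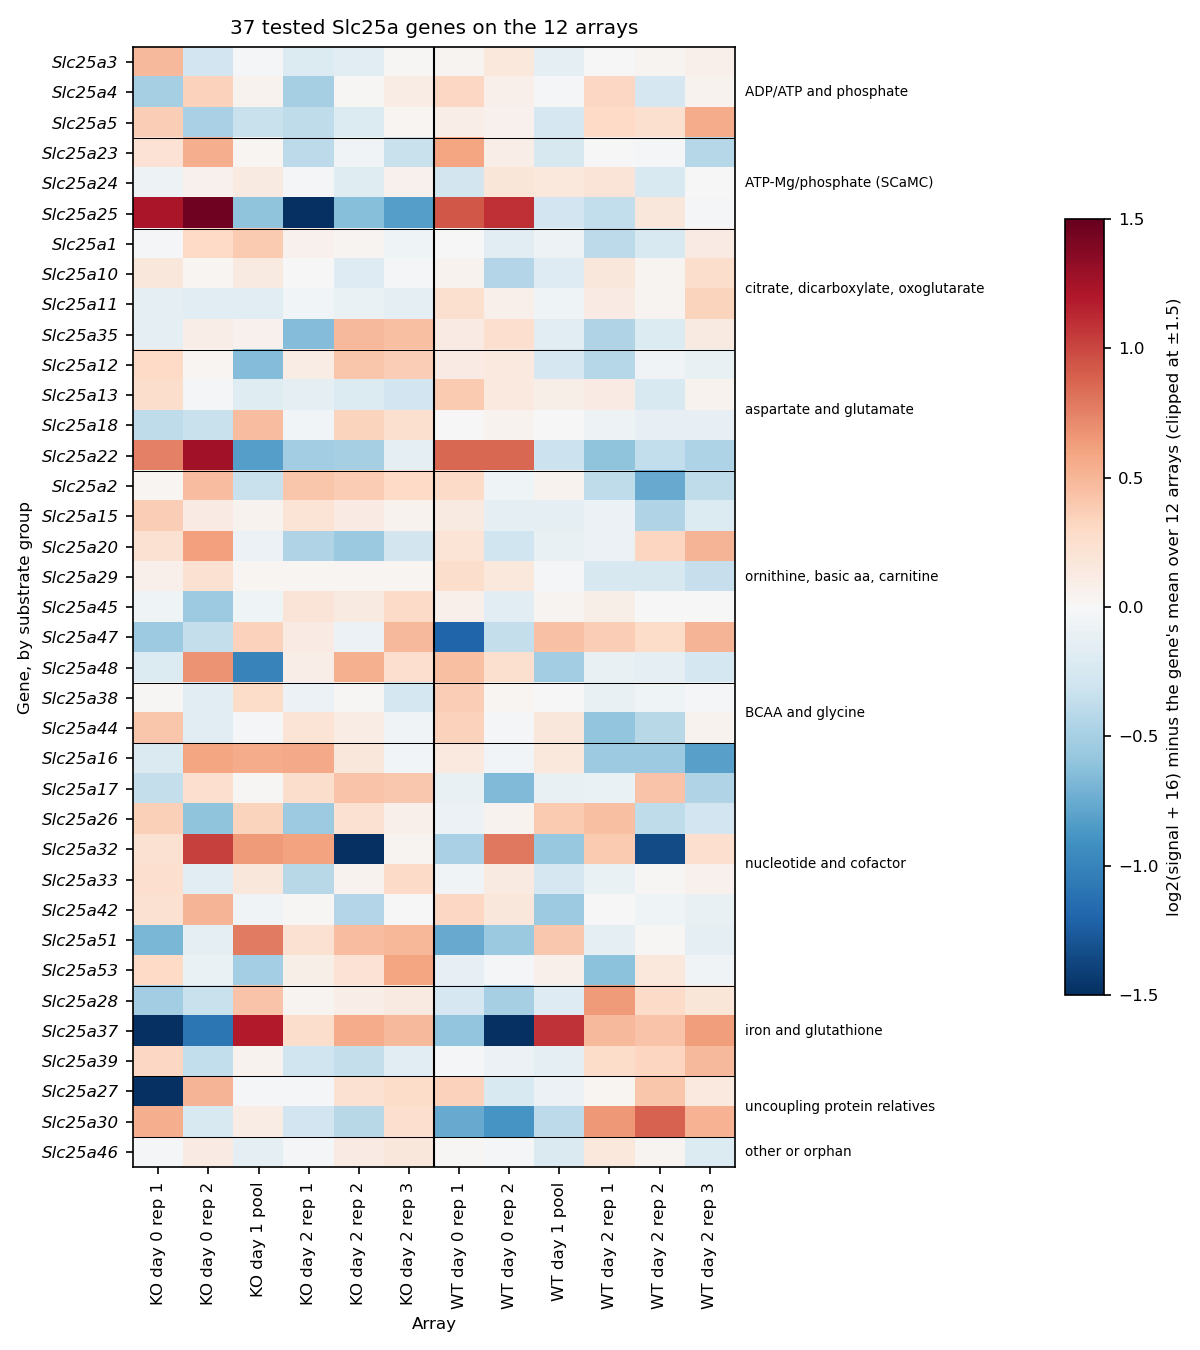
Heat map of the 37 tested Slc25a genes (rows, by substrate group) on the 12 arrays (columns, 6 KO arrays left of 6 WT arrays), coloured by log2(signal + 16) minus the gene's mean over the arrays, clipped at 1.5 either way. Slc25a22 and Slc25a25 are high on all 4 day 0 arrays, Slc25a37 is low on them, and Slc25a30 is high on the 3 WT day 2 arrays.

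Differences below are on the log2(signal + 16) scale with their SE and come from limma's fit of 6 group means to the 12 arrays, with Benjamini-Hochberg adjustment over all 14069 genes. A gene counts as called at an adjusted p under 0.05. In KO livers at day 2, 5 of 37 members (2 higher, 3 lower) were called against day 0, while 8.73% of all genes were (4.23% higher, 4.5% lower). In WT livers 7 of 37 members (5 higher, 2 lower) were called against day 0, beside 12.7% of all genes (7.26% higher, 5.4% lower). The median change of the members was -0.04 in KO livers and -0.09 in WT livers, beside 0.05 and -0.11 over all genes. Between KO and WT livers at day 2, 5 members (1 higher, 4 lower) were called, beside 9.23% of all genes (3.99% higher, 5.24% lower). Leaving out any 1 of these 6 arrays left 0 or 1 member called, beside 408 to 979 genes. At day 0 none of the 37 was called between KO and WT livers, beside 0.171% of all genes (0.064% higher, 0.107% lower). An unadjusted p under 0.05 was found there for 2 members (5.41%) and for 8.17% of all genes. The change in KO livers differed from that in WT livers for 1 member, which was lower, beside 3.16% of all genes (1.09% higher, 2.07% lower). After quantile normalization that was also 1 member, beside 2.04% of genes. KO at day 2 enters both the KO change and the comparison of genotypes, so these are not independent.

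At day 2 signals spanned less on the KO arrays than on the WT arrays. The mean log2 signal of the 200 brightest genes was 14.29 to 14.47 on KO day 2 arrays and 14.60 to 14.79 on WT day 2 arrays. At day 0 it was 14.76 and 14.50 on KO arrays and 14.435 and 14.474 on WT arrays. The median difference between KO and WT at day 2 was -0.41 over the 152 genes with a mean log2 signal over 14 and 0.19 over the genes between 8 and 10. For the WT change these medians were 0.16 and -0.15. Another scaling moved the split of the members. After quantile normalization the calls were 3 higher and 1 lower between KO and WT at day 2 (beside 7.39% of genes). After centring each array on its median they were 0 higher and 5 lower, beside 233 higher and 1366 lower of the 14069 genes. The median over all genes in that comparison was 0.09 as deposited and -0.08 after centring, and in the WT change it was -0.11 as deposited and 0.02 after centring. In KO livers the split against day 0 was 4 higher and 3 lower after quantile normalization (beside 9.3% of genes), and in WT livers it was 4 higher and 3 lower (beside 12.7%). At day 0 no member was called after quantile normalization, beside 0.163% of genes.

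The glutamate carrier gene Slc25a22 read 3021.0 and 4292.6 in KO livers at day 0, 998.6 in the KO pool of day 1 and 1231.7, 1250.2 and 1622.1 in KO livers at day 2. WT livers had 3243.3 and 3230.6 at day 0, 1418.7 in the pool and 1163.6, 1370.4 and 1286.0 at day 2. All day 2 arrays were below all day 0 arrays. Slc25a22 fell 2.63-fold in KO livers (-1.40 ± 0.17, adjusted p = 0.000434) and 2.53-fold in WT livers (-1.34 ± 0.17, adjusted p = 0.00039). Its call was kept in both genotypes under each alternative processing tried and without each array. The day 1 pools, 1 array each and not tested, lay below the day 2 arrays in KO livers and just above them in WT livers.

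The rest of the aspartate and glutamate carriers, Slc25a12 and Slc25a13 (the aspartate-glutamate exchangers of the malate-aspartate shuttle) and Slc25a18 (the second glutamate carrier), were not called in any comparison as deposited. After quantile normalization Slc25a13 was called in the WT change (-0.44, adjusted p = 0.0375, against -0.29 as deposited). Slc25a18 in KO livers read 340.8 and 351.9 at day 0, 621.3 in the pool and 435.0, 568.7 and 530.1 at day 2. In WT livers Slc25a18 read 446.4 and 463.3 at day 0, 444.3 in the pool and 421.7, 407.5 and 409.7 at day 2. The arrays of the days did not overlap in either genotype and lay in opposite directions, and the difference between the changes was 0.67 ± 0.29 (adjusted p = 0.215, 0.49 after quantile normalization). Of the 9 genes of malate-aspartate and citrate metabolism set beside these carriers, 0 rose and 2 fell in KO livers, and 1 rose and 2 fell in WT livers. Got1, the cytosolic aspartate aminotransferase that works with the aspartate-glutamate exchangers, changed by -2.34 ± 0.21 in KO livers (adjusted p = 4.83e-05) and by -1.40 ± 0.21 in WT livers (adjusted p = 0.00111). Acly, which splits exported citrate, fell by 1.09 and 1.62 on the log2 scale in KO and WT livers (adjusted p = 0.0116 and 0.000678), while the citrate carrier gene Slc25a1 was not called.

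Slc25a37 encodes mitoferrin-1, the iron importer known best from erythroid cells. It read 252.2 and 379.3 at day 0, 1901.7 in the day 1 pool and 992.5, 1219.5 and 1166.4 at day 2 in KO livers. In WT livers it read 544.0 and 228.0 at day 0, 1770.0 in the pool and 1157.9, 1112.7 and 1282.4 at day 2. The day 1 pools had the highest signals, and no day 2 array overlapped a day 0 array. Slc25a37 rose 3.49-fold in KO livers (1.81 ± 0.29, adjusted p = 0.00251) and 3.24-fold in WT livers (1.70 ± 0.29, adjusted p = 0.00269), and was called without each array and under each alternative. Leaving out 1 array at a time, the WT change was 1.10 when replicate 2 of WT day 0 was dropped and 2.30 when replicate 1 was. Summed signals of 4 erythroid markers were 1156.4 to 1293.8 at day 2 and 1607.7 to 1780.9 at day 0 in KO livers, and 991.4 to 1386.7 at day 2 and 1291.3 to 1917.7 at day 0 in WT livers, with Epb42 below the dim level. Among them Alas2 fell in KO livers (-1.98, adjusted p = 0.0106), while Hba-a1 and Klf1 had changes of 0.24 and 0.02 that were not called. The part of erythroid cells in the rise of Slc25a37 was not tested. The arrays read whole tissue, so the number of cells of a type and the RNA in each cannot be told apart.

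Its relative Slc25a28, mitoferrin-2, the mitoferrin of most other cells, read 572.8 and 651.5 at day 0, 1118.8 in the pool and 854.8, 886.8 and 910.6 at day 2 in KO livers. WT livers had 690.6 and 579.7 at day 0, 723.4 in the pool and 1298.7, 1016.1 and 938.9 at day 2. Both genotypes were higher at day 2 with no overlap. The difference passed the test in WT livers, where Slc25a28 rose 1.68-fold (0.75 ± 0.17, adjusted p = 0.0149, and 0.63 with no call without WT day 0 replicate 2). In KO livers it was 0.52 ± 0.17 (adjusted p = 0.0905), and the difference between the changes was -0.23 ± 0.25 (adjusted p = 0.622, -0.29 after quantile normalization). Among 10 tested genes of haem and iron-sulphur synthesis, 1 rose and 2 fell in KO livers and 1 rose and 1 fell in WT livers. Alas1, the first enzyme of haem synthesis outside erythroid cells, rose in both, by 1.92 ± 0.18 in KO livers (adjusted p = 5.62e-05) and 1.25 ± 0.18 in WT livers (adjusted p = 0.00073). Cpox, a later enzyme of the same pathway, changed by -0.89 and -0.74 in KO and WT livers (adjusted p = 0.0279 and 0.0487), and Alas2, the erythroid form of the first enzyme, by -1.98 in KO livers (adjusted p = 0.0106).

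Slc25a39, needed for glutathione import into mitochondria, read 24965.7 and 15569.9 at day 0, 20882.8 in the pool and 16296.8, 15648.9 and 17984.5 at day 2 in KO livers. In WT livers it read 19711.7 and 18959.6 at day 0, 18264.4 in the pool and 24362.0, 25175.2 and 28174.6 at day 2. All KO day 2 arrays were below all WT day 2 arrays, a difference of -0.64 ± 0.15 (adjusted p = 0.0269). It was -0.25 after quantile normalization, with no call, and -0.22, -0.62 and 0.54 at its 3 other probe sets past the dim level, and no call was left without any 1 of the 6 day 2 arrays. The probe set's name ends in x_at, which marks probes that may match other transcripts as well.

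**Figure D2:**
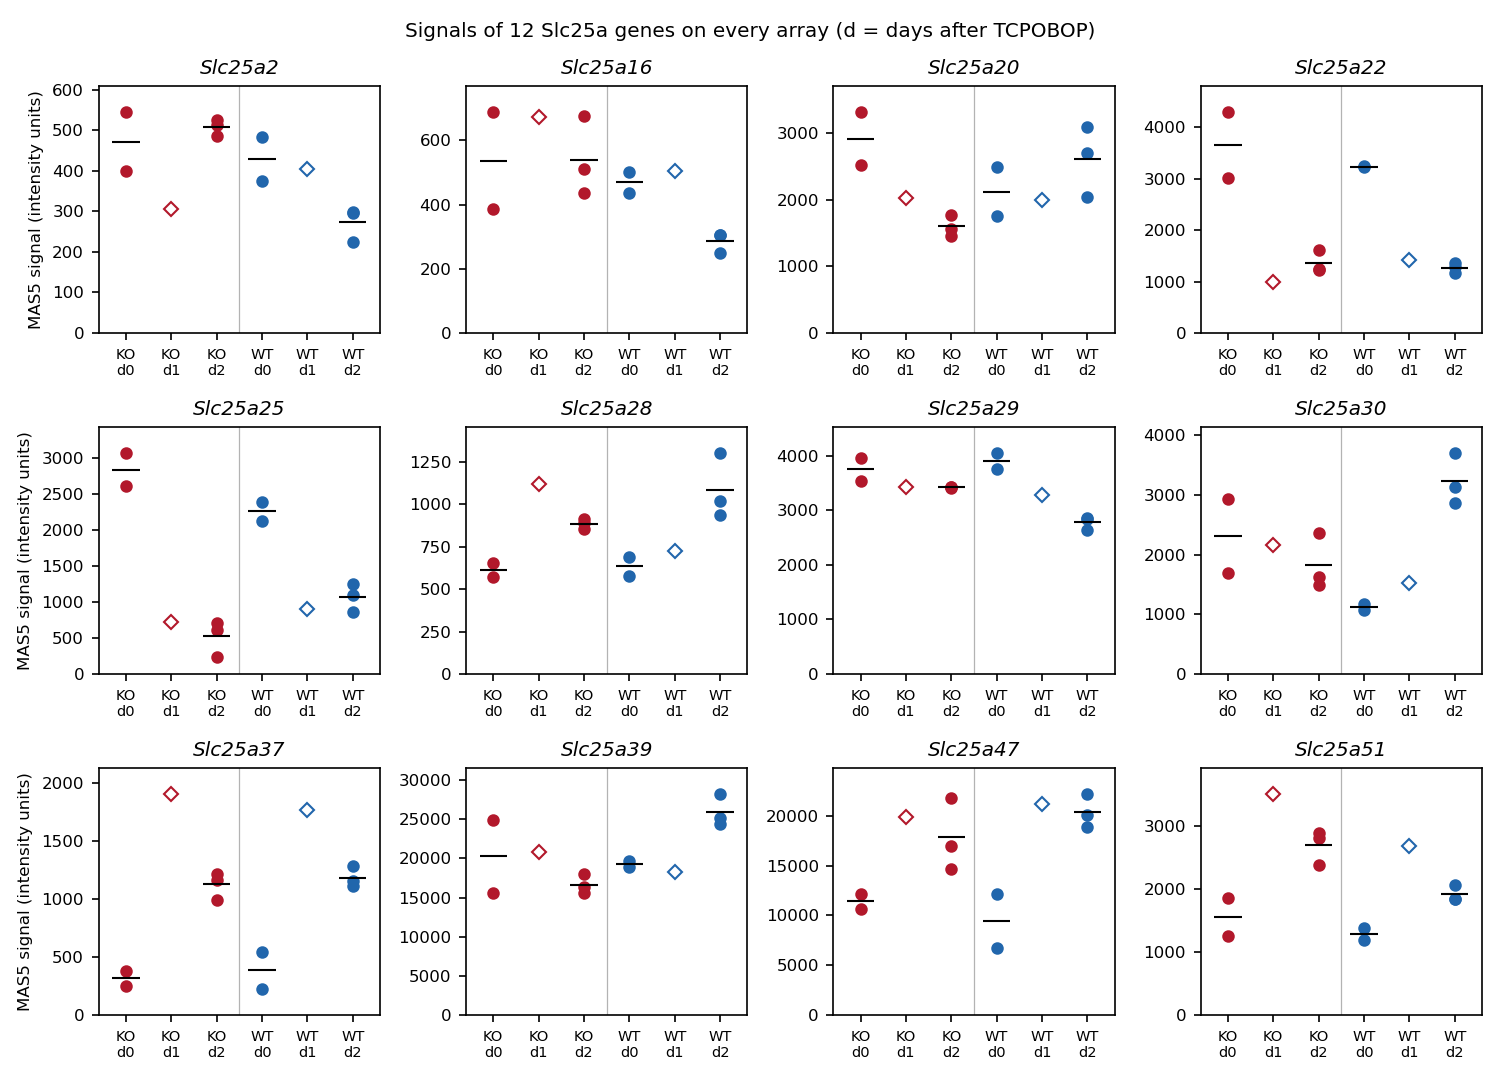
MAS5 signal in intensity units of 12 Slc25a genes in KO livers (red, left) and WT livers (blue, right) at days 0, 1 and 2. Filled points are arrays, open diamonds are the day 1 pools and bars are group means; Slc25a22 and Slc25a25 are lower, and Slc25a37 and Slc25a51 higher, on every day 2 array than on every day 0 array of the same genotype.

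Slc25a25 (SCaMC-2) read 2609.6 and 3069.3 at day 0, 726.2 in the pool and 238.6, 710.0 and 619.3 at day 2 in KO livers. The WT signals were 2126.8 and 2396.7 at day 0, 907.8 in the pool and 858.2, 1252.0 and 1098.2 at day 2. Both genotypes were lower at day 1 and day 2, and KO day 2 arrays lay below all WT day 2 arrays. Slc25a25 fell 5.81-fold in KO livers (-2.54 ± 0.35, adjusted p = 0.000978), a call kept under each alternative and without each array. In WT livers the change was -1.08 ± 0.35 (adjusted p = 0.0668). Between KO and WT at day 2 the difference was -1.13 ± 0.32 (adjusted p = 0.0457, -1.19 after quantile normalization), but the difference between the changes was not called (-1.46 ± 0.50, adjusted p = 0.13, -1.50 after quantile normalization). Of its 2 other probe sets past the dim level, one changed by 0.08 and the other by -1.48 in KO livers, and both were higher in KO than in WT at day 2 (0.16 and 0.17), so the genotype difference rests on 1 probe set. Its call was kept without KO day 2 replicate 2 and lost without each of the other 5 day 2 arrays, with -0.66 without KO day 2 replicate 1.

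The other ATP-Mg carriers, Slc25a23 and Slc25a24, were not called. Slc25a23 had changes of -0.64 ± 0.19 in KO livers (adjusted p = 0.0629) and -0.50 ± 0.19 in WT livers (adjusted p = 0.115), and Slc25a24 ranged from 228.7 to 321.8 over all arrays. The ADP/ATP exchangers Slc25a4 and Slc25a5 and the phosphate carrier Slc25a3, which supply the ATP synthase, gave no call in any comparison. Slc25a5 read 20955.7, 23721.9 and 27993.3 in KO livers and 33827.0, 32242.9 and 40382.6 in WT livers at day 2, without overlap. Its difference was -0.55 ± 0.19 (adjusted p = 0.09) and -0.12 after quantile normalization. The probe set's name also ends in x_at, and over the 8 probe sets of Slc25a5 this difference ran from -0.55 to 0.81.

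Slc25a30 read 2925.8 and 1692.0 at day 0, 2153.9 in the pool and 1627.2, 1492.3 and 2371.5 at day 2 in KO livers. In WT livers it read 1175.1 and 1075.0 at day 0, 1519.1 in the pool and 3132.8, 3696.0 and 2859.2 at day 2. Every KO day 0 array was above every WT day 0 array, and every KO day 2 array below every WT day 2 array. Slc25a30 rose 2.83-fold in WT livers (1.50 ± 0.24, adjusted p = 0.00154), a call kept under each alternative and without each array. In KO livers days 0 and 2 overlapped (-0.31 ± 0.24, adjusted p = 0.491). The difference between the changes was -1.81 ± 0.34 (adjusted p = 0.0212, -1.70 after quantile normalization). It lost its call without WT day 0 replicate 1, WT day 0 replicate 2 or KO day 2 replicate 2, over values from -2.20 to -1.42.

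The difference between the changes adds up 2 contrasts. At day 2 KO minus WT was -0.84 ± 0.21 (adjusted p = 0.0328, -0.71 with no call after quantile normalization). At day 0 KO minus WT was 0.98 ± 0.26 (adjusted p = 0.27, unadjusted p = 0.003, 0.99 after quantile normalization), which was not called. The 3 other Slc25a30 probe sets past the dim level had the same signs. Their changes were 1.14, 2.18 and 1.74 in WT livers, their differences between KO and WT at day 2 were -0.56, -0.73 and -1.07, and their differences between the changes were -1.30, -2.67 and -2.05. Averaging all Slc25a30 probe sets, also that below the dim level, kept the call of the WT change. It left no call between KO and WT at day 2 or for the difference between the changes. The probe set below the dim level had a difference of 0.63 between KO and WT at day 2. The summed signals of 6 hepatocyte markers lay in the same directions between KO and WT livers at each of these days. They were 211060 to 273174 in KO and 385352 to 434163 in WT livers at day 2. At day 0 they were 348949 to 412518 in KO and 297036 to 297460 in WT livers. In KO livers the sums of day 2 were all below those of day 0, while the Slc25a30 signals of these days overlapped. Alb, Apoa1, Cyp3a11 and Ttr were called lower in KO than in WT livers at day 2, and Cps1 and Tat were not called. Tat read 12861.0, 15804.3 and 16365.3 in KO and 16292.6, 12571.8 and 15432.7 in WT livers at day 2. The part of these markers in the results for Slc25a30, Slc25a20, Slc25a39 and Slc25a5 was not tested.

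**Figure D3:**
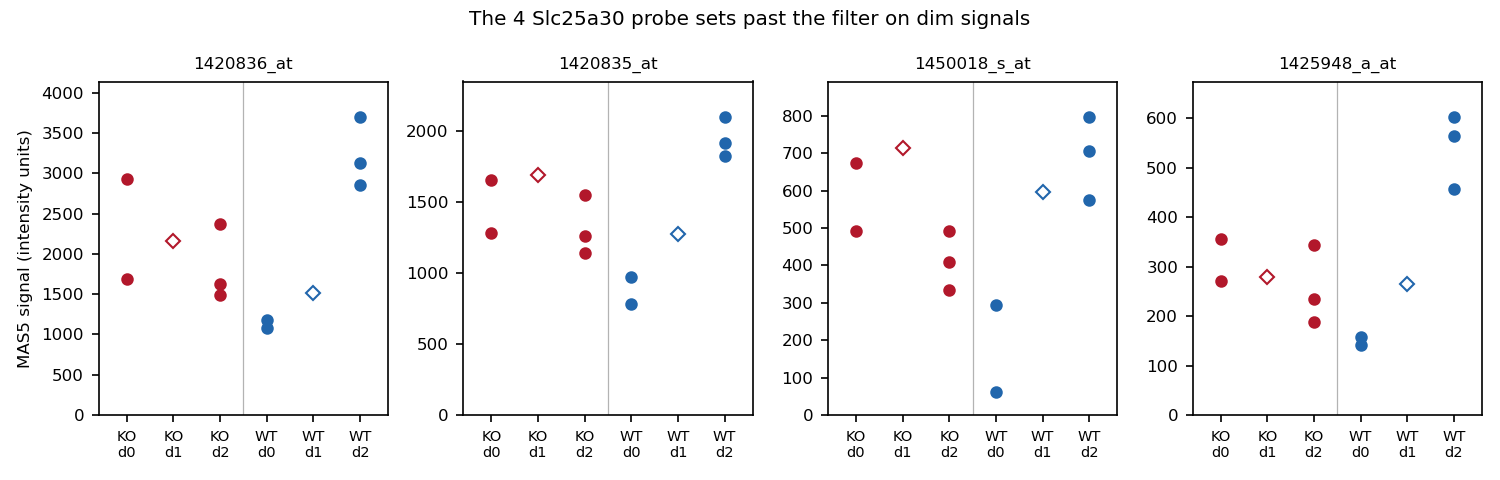
MAS5 signal in intensity units of the 4 Slc25a30 probe sets past the filter on dim signals, in KO livers (red, left) and WT livers (blue, right) at days 0, 1 and 2, with the day 1 pools as open diamonds. In each panel the WT day 2 arrays lie above the WT day 0 arrays and above the KO day 2 arrays.

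Of the relatives of Slc25a30, Slc25a27 (UCP4) was not called and Slc25a14 was below the dim level. Family members without an Slc25a symbol were set beside them. Of 3 tested, Mtch1, an outer membrane carrier homologue, read 1286.5 and 1736.3 at day 0, 1518.7 in the pool and 802.5, 656.3 and 815.2 at day 2 in KO livers. WT livers had 1125.8 and 957.9 at day 0, 1227.3 in the pool and 1380.7, 1059.1 and 1675.7 at day 2. It fell in KO livers (-0.97 ± 0.21, adjusted p = 0.0123) and had a change of 0.37 ± 0.21 in WT livers (adjusted p = 0.276), and these changes differed (-1.34 ± 0.29, adjusted p = 0.0334, -1.41 after quantile normalization). Mtch2, its relative, rose in WT livers (0.65 ± 0.16, adjusted p = 0.0205, and 0.53 with no call after quantile normalization). Vdac1, the outer membrane channel through which metabolites reach the carriers, rose in WT livers (0.61 ± 0.16, adjusted p = 0.0306), and its changes differed (-1.04 ± 0.23, adjusted p = 0.0374, -0.66 with no call after quantile normalization). Of 11 genes of other inner and outer membrane transport, 0 rose and 1 fell in KO livers and 2 rose and 2 fell in WT livers. Mpc1 of the pyruvate carrier fell in both, by 0.59 in KO and 0.72 in WT livers on the log2 scale.

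Slc25a51 read 1253.7 and 1851.7 at day 0, 3502.8 in the pool and 2381.1, 2813.0 and 2883.6 at day 2 in KO livers. The WT signals were 1197.9 and 1375.7 at day 0, 2684.3 in the pool and 1844.2, 2058.1 and 1842.1 at day 2. In each genotype the pool was highest and day 2 stayed above day 0. Slc25a51 rose 1.75-fold in KO livers (0.81 ± 0.17, adjusted p = 0.0113, lost without KO day 0 replicate 1) and 1.48-fold in WT livers (0.57 ± 0.17, adjusted p = 0.0472, lost without any 1 of its 5 arrays and after quantile normalization). Its 2 other probe sets past the dim level changed by 0.76 and 2.66 in KO livers and by 0.81 and 0.59 in WT livers. Between KO and WT at day 2 the difference was 0.49 ± 0.15 (adjusted p = 0.0653), and 0.62 with a call after quantile normalization (adjusted p = 0.0417).

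Slc25a16, linked to coenzyme A through its yeast relative Leu5, read 386.3 and 686.6 at day 0, 671.2 in the pool and 674.6, 509.8 and 435.7 at day 2 in KO livers. WT livers had 501.8 and 437.3 at day 0, 502.9 in the pool and 303.6, 303.7 and 249.3 at day 2. All KO day 2 arrays were above the WT day 2 arrays, but the difference missed the threshold (0.87 ± 0.25, adjusted p = 0.0502, 0.69 after quantile normalization). The other cofactor and nucleotide carriers tested, Slc25a17 of peroxisomes, Slc25a26 for S-adenosylmethionine, Slc25a32 for folate, Slc25a33 for pyrimidine nucleotides, Slc25a42 for coenzyme A and Slc25a53, gave no call. Of 9 genes of mitochondrial DNA maintenance, which uses such nucleotides, 0 were called in either genotype by limma. An unadjusted p under 0.05 was found for 2 of them in KO livers and 3 in WT livers, beside 22.6% and 27.0% of all genes. Of 8 one-carbon genes, 0 were called in KO livers (1 at an unadjusted p under 0.05) and 1 rose in WT livers, Gldc (0.90 ± 0.17, adjusted p = 0.00528).

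Slc25a20, the carnitine and acylcarnitine exchanger that brings long-chain fatty acids to oxidation, read 2527.2 and 3312.8 at day 0, 2028.1 in the pool and 1569.9, 1457.5 and 1779.7 at day 2 in KO livers. In WT livers it read 2487.0 and 1755.4 at day 0, 1992.5 in the pool and 2036.9, 2696.5 and 3087.6 at day 2. KO day 2 arrays were below KO day 0 and WT day 2 arrays, and WT days 0 and 2 overlapped. Slc25a20 fell 1.80-fold in KO livers (-0.85 ± 0.20, adjusted p = 0.0236). At day 2 KO minus WT was -0.68 ± 0.18 (adjusted p = 0.04, -0.57 with no call after quantile normalization). The difference between the changes was -1.15 ± 0.29 (adjusted p = 0.0553, -1.02 after quantile normalization). Its other probe set had -0.18 for the KO change and -0.01 between KO and WT at day 2, and the KO call was lost without KO day 0 replicate 2, KO day 2 replicate 1 or KO day 2 replicate 2. Of 5 carnitine shuttle genes 2 fell in each genotype, Crot and Cpt1a, which load fatty acids onto carnitine. Cpt1a changed by -0.65 ± 0.15 in KO livers (adjusted p = 0.0213) and by -1.13 ± 0.15 in WT livers (adjusted p = 0.000484).

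Slc25a2, an ornithine carrier, read 398.7 and 543.5 at day 0, 305.8 in the pool and 525.3, 511.9 and 486.0 at day 2 in KO livers. WT livers had 481.9 and 374.3 at day 0, 404.6 in the pool and 296.7, 225.5 and 297.1 at day 2. At day 2 KO was above WT by 0.87 ± 0.22 without overlap (adjusted p = 0.0332, 0.70 with no call after quantile normalization), and no call was left without any 1 of the 6 day 2 arrays. Slc25a15, the main ornithine carrier of the urea cycle, was not called as deposited, at 0.37 ± 0.13 between KO and WT at day 2 (adjusted p = 0.0909). After quantile normalization it was called at 0.62 (adjusted p = 0.0112). Of 7 urea cycle genes, 0 rose and 4 fell in KO livers (Cps1, Arg1, Otc and Oat, by 0.77, 0.77, 0.58 and 0.81 on the log2 scale), and in WT livers Oat alone was called (-1.26 ± 0.18, adjusted p = 0.000788). After quantile normalization the 4 KO changes were -0.33, -0.45, -0.41 and -0.60, still called. As deposited, the 152 genes with a mean log2 signal over 14 had a median KO change of -0.42. Of the 6 hepatocyte markers, 5 fell in KO livers, Cps1 among them, and the part of these shifts in the urea cycle result was not tested.

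Slc25a47, a carrier found mainly in liver, read 10641.2 and 12140.0 at day 0, 19830.7 in the pool and 17003.2, 14629.0 and 21805.2 at day 2 in KO livers. In WT livers it read 6751.3 and 12117.5 at day 0, 21142.2 in the pool and 20101.4, 18846.7 and 22128.4 at day 2. Every later array was above every day 0 array in both genotypes. Slc25a47 rose 2.24-fold in WT livers (1.17 ± 0.22, adjusted p = 0.00513, and 0.74 with no call without WT day 0 replicate 1). In KO livers the change was 0.63 ± 0.22 (adjusted p = 0.115), which became 0.83 with a call after quantile normalization (adjusted p = 0.0375). The difference between the changes was -0.54 ± 0.32 as deposited and -0.10 after quantile normalization, with no call in either.

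Slc25a29, which carries basic amino acids and is the next protein-coding gene to Slc25a47 on chromosome 12, read 3547.0 and 3955.9 at day 0, 3437.5 in the pool and 3423.2, 3418.3 and 3430.9 at day 2 in KO livers. WT livers had 4045.4 and 3756.6 at day 0, 3286.9 in the pool and 2853.8, 2847.5 and 2648.1 at day 2. Slc25a29 fell 1.40-fold in WT livers, the opposite direction to its neighbour (-0.48 ± 0.11, adjusted p = 0.0154). The call was lost without either WT day 0 array or WT day 2 replicate 3, and its other probe sets past the dim level changed by -0.41, 0.24 and 0.51. In KO livers the change was -0.13 ± 0.11 (adjusted p = 0.554). Between KO and WT at day 2 the difference was 0.30 ± 0.10 (adjusted p = 0.0842) and 0.48 with a call after quantile normalization (adjusted p = 0.0231). Slc25a45 and Slc25a48 were not called as deposited. The change of Slc25a45 in KO livers was 0.51 ± 0.15 (adjusted p = 0.0603), and 0.57 with a call after quantile normalization (adjusted p = 0.0293).

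**Figure D4:**
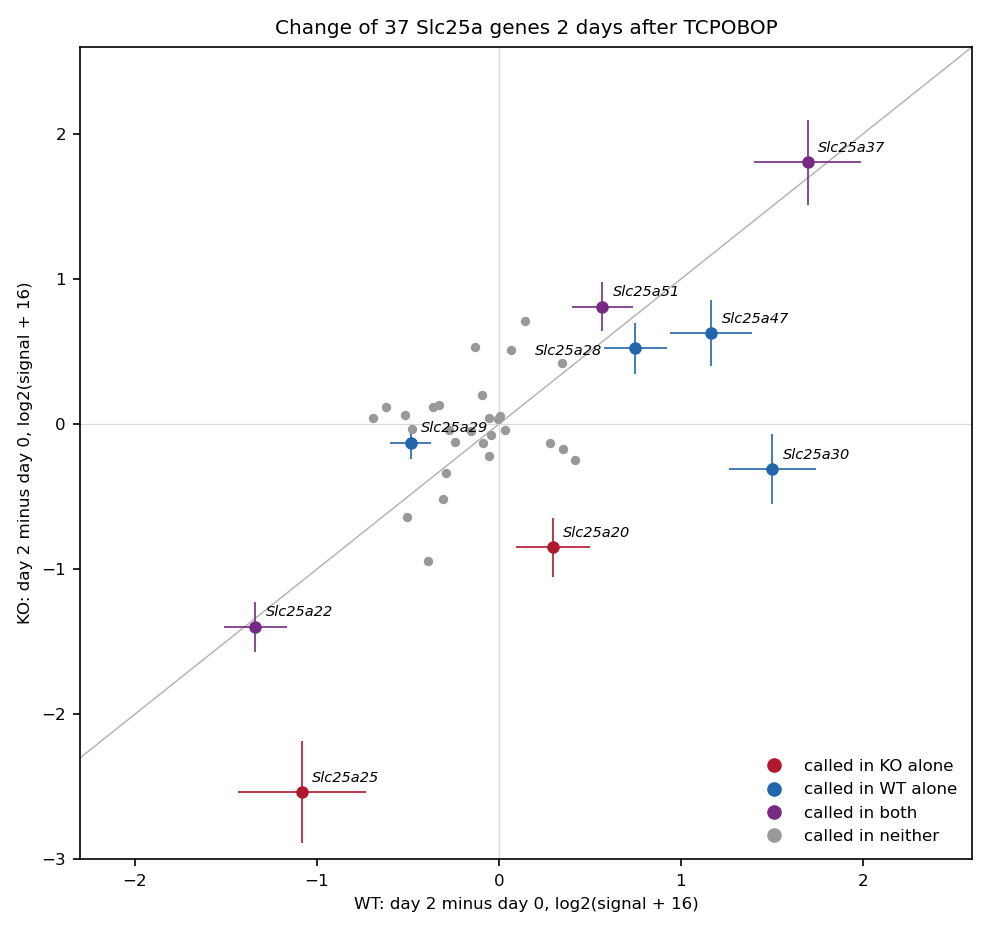
Change from day 0 to day 2 in KO livers (vertical axis) against that in WT livers (horizontal axis) for 37 Slc25a genes, in log2(signal + 16), with limma's SE as bars on the called genes and the line of equal change. Slc25a22, Slc25a37 and Slc25a51 lie near the line and were called in both genotypes, and Slc25a30 lies far below it at 1.50 in WT and -0.31 in KO.

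The carriers of citrate, dicarboxylates and oxoglutarate (Slc25a1, Slc25a10, Slc25a11 and Slc25a35) and those of branched-chain amino acids and glycine (Slc25a44 and Slc25a38) gave no call in any comparison. Their changes ran from -0.17 to 0.12 in KO livers and from -0.48 to 0.35 in WT livers. Slc25a46, an outer membrane protein of the family, ranged from 1187.0 to 1557.0 over all arrays. The 7 members below the dim level were the testis-type ADP/ATP exchanger Slc25a31 (5.5 to 64.3), Slc25a14 (52.2 to 81.0), Slc25a34 (38.1 to 222.5), the pyrimidine nucleotide carrier Slc25a36 (8.8 to 157.0), Slc25a40 (14 to 209.4), Slc25a41 (11.4 to 86.4) and Slc25a54 (83.2 to 275.0). Array medians were 231.6 to 277.0.

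The day 1 pools have 1 array per genotype and no test. Against the day 0 mean, 5 of 37 members (13.5%) were past 2-fold in the KO pool, beside 12.8% of all genes, and 5 (13.5%) in the WT pool, beside 13.2%. Slc25a22, Slc25a25, Slc25a37 and Slc25a51 were among them in both pools. Slc25a37 differed most, by 2.56 in the KO pool and 2.27 in the WT pool on the log2 scale. Slc25a25 was at -1.94 in the KO pool and -1.30 in the WT pool. Slc25a48 was past 2-fold in the KO pool alone (-1.24, beside -0.87 in the WT pool), and Slc25a47 in the WT pool alone (1.22, beside 0.80 in the KO pool). Between the KO and WT pools 1 member, Slc25a32, was past 2-fold (1.20), a share of 2.70% beside 9.07% of all genes. Its 12 signals ranged from 48.0 to 374.2, with replicates as far apart as 48.0 and 273.1 in KO livers at day 2.

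Counted by arrays that do not overlap, 15 members (40.5%) separated day 2 from day 0 in KO livers, beside 40.4% of all genes, and 19 (51.4%) in WT livers, beside 45.1%. KO and WT livers were apart for 17 members (45.9%) at day 2, beside 36.2% of all genes, and for 7 (18.9%) at day 0, beside 35.6%. Carrier import genes, whose products insert carriers into the inner membrane, had 0 of 11 called in KO livers (1 at an unadjusted p under 0.05) and 2 rises (Tomm20 and Timm22) and 1 fall (Agk) in WT livers. Of 8 regulators of mitochondrial genes, Myc rose and Ppara fell in both genotypes. Myc changed by 2.38 ± 0.41 in KO livers (adjusted p = 0.00345) and 1.59 ± 0.41 in WT livers (adjusted p = 0.0239). Ppara, the receptor that drives fatty acid oxidation genes, changed by -1.18 ± 0.21 in KO livers (adjusted p = 0.00415) and -2.02 ± 0.21 in WT livers (adjusted p = 7.69e-05). Ppargc1b, a co-activator of mitochondrial genes, fell by 2.47 on the log2 scale in WT livers (adjusted p = 0.00564).

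**Figure D5:**
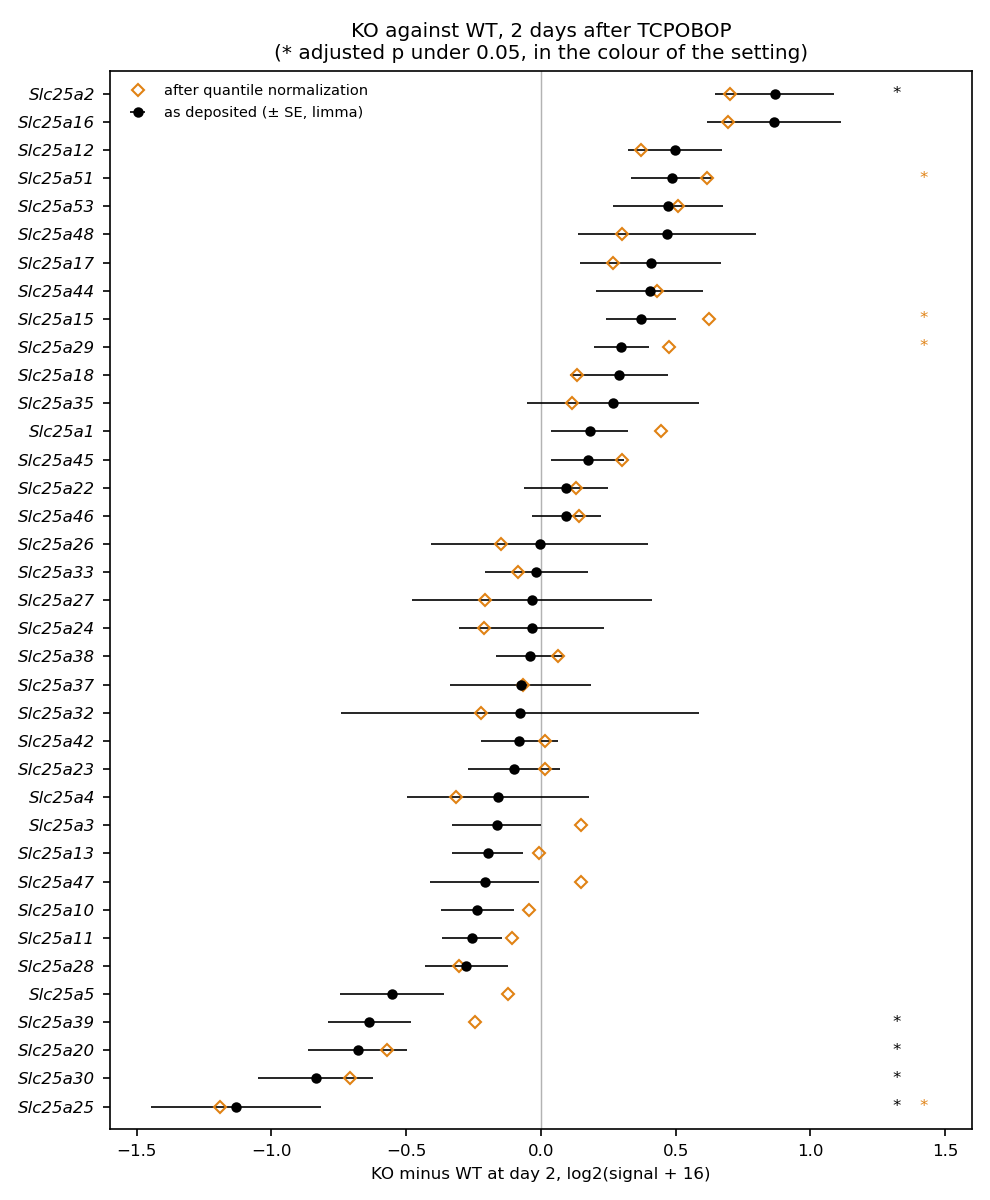
Difference between KO and WT livers at day 2 for 37 Slc25a genes in log2(signal + 16), as deposited (black points, bars are limma's SE) and after quantile normalization (orange diamonds), with stars for an adjusted p under 0.05 in that setting. Slc25a25 is called in both settings, Slc25a2, Slc25a20, Slc25a30 and Slc25a39 as deposited alone, and Slc25a15, Slc25a29 and Slc25a51 after quantile normalization alone.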

How the data were processed

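The authors deposited MAS5 intensity values (signals), 1 per probe set and array, per the submitters' processing notes, which give no version. The mean of each array's values between its 2nd and 98th percentiles is 500.002 to 500.003, so every array had been scaled to the same target. A genome build for these values is not given in the sources used here. Arrays have no depth, and their number limits the precision.

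The deposited intensities were used as log2(value + 16) with no further normalization. Of 45101 probe sets, 34945 name 1 gene and 932 several, and only the former were used. A probe set was tested when above its array's median on at least 2 of 12 arrays, with 1 probe set per gene, that with the highest mean. One probe set naming Slc25a37 with another gene was left out. In R 4.3.3, limma 3.58.1 was run once over all 12 arrays with a mean per group, leaving 6 degrees of freedom, and eBayes had its trend and robust options on. Tests were two-sided. Figures came from matplotlib 3.10.9 under Python 3.11.15, with numpy 2.4.6 and pandas 2.3.3. The fit was checked on simulated data.

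Members given with every array are those called at an adjusted p under 0.05 in any of 5 comparisons, and the next by smallest p up to 12. Members, lists, tests and alternatives were chosen with earlier results of these data known. Alternatives were quantile and cyclic loess normalization, median centring, pseudocounts of 1 and 64, no filter and a stricter one (6 arrays), the mean of probe sets, testing each probe set, eBayes with those options off, a fit of the compared groups alone, the replicate number as a block, an adjusted p under 0.01 and leaving out each replicate. Promoters are RefSeq's (GRCm38.p6), found for 34 of 44 members.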

Additional observations from a re-analysis of the deposited data

Results flagged for a closer look

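Among the members and the related genes set beside them, 3 had a change from day 0 to day 2 that differed between the genotypes. This was by the test of the difference itself, limma's contrast of the change in KO livers minus the change in WT livers. They were 1 of 37 tested members, 1 of 3 family members without an Slc25a symbol and 1 of 11 genes of other membrane transport. None was called among 11 carrier import, 9 malate-aspartate and citrate, 7 urea cycle and 5 carnitine shuttle genes. The same held for 8 one-carbon, 10 haem and iron-sulphur, 9 mitochondrial DNA and 8 regulator genes. Over all genes 3.16% were called in this contrast (1.09% higher, 2.07% lower). Of the 6 hepatocyte markers 4 were called lower in it, Alb, Apoa1, Cyp3a11 and Ttr. Slc25a30, the uncoupling protein relative, had a difference of -1.81 (SE 0.34, adjusted p = 0.0212), with changes of -0.31 in KO livers and 1.50 in WT livers. Mtch1, the outer membrane carrier homologue, had -1.34 (SE 0.29, adjusted p = 0.0334), with -0.97 in KO livers and 0.37 in WT livers. Vdac1, the outer membrane channel, had -1.04 (SE 0.23, adjusted p = 0.0374), with -0.43 in KO livers and 0.61 in WT livers, and was not called after quantile normalization (-0.66, adjusted p = 0.086). Each group holds 1 to 3 arrays, so no array could be checked as an outlier within its group.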

How the results depend on the processing

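No called difference of a named member turned its direction in any alternative. Testing each probe set kept the value of the probe set that represents the member, so it could not turn a direction. Some other probe sets of Slc25a25, Slc25a29 and Slc25a39 had the opposite sign to a called difference, as given above. The called differences of members and that of Slc25a16 between KO and WT at day 2 were tallied over the alternatives. The adjusted p under 0.01 was left out of this tally. In it 252 values stayed on their side of the threshold, 80 lost the call and 2, both of Slc25a16, gained one. Differences not called as deposited also gained calls in some alternatives, for Slc25a3, Slc25a5, Slc25a13, Slc25a15, Slc25a20, Slc25a25, Slc25a27, Slc25a29, Slc25a39, Slc25a45, Slc25a47 and Slc25a51. At an adjusted p under 0.01 the members called were 3 in KO livers, 4 in WT livers, 0 between KO and WT at day 2 and 0 for the difference between changes. The genes called were 569, 867, 272 and 34 in the same order. Between KO and WT at day 2 the count of 5 became 2 after cyclic loess normalization, 2 with no filter, 1 with the mean of probe sets and 1 without trend and robust. The count over all genes, 1299 as deposited, became 1098, 1089, 789 and 756 in the same order. For the difference between changes the count of 1 became 2 after centring, 0 with the mean of probe sets and 0 without trend and robust. Over all genes the 444 called as deposited became 535, 202 and 77 in these settings. Leaving out each replicate gave 4 to 7 members in KO livers, 4 to 6 in WT livers, 0 to 1 between KO and WT at day 2, 0 at day 0 and 0 to 2 for the difference between changes. The dimmer Yap1 probe set gave -0.77 (exact permutation p = 0.108). The cause of these moves was not tested, except that a stricter threshold cannot raise a count. Leaving out an array lowered some counts and raised others.

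Counts over all genes that fell short of the deposited ones by over 1.5 times were 801 in KO livers with only the groups compared and 569 at 0.01, 867 in WT livers at 0.01, and 789 with the mean of probe sets, 756 without trend and robust and 272 at 0.01 between KO and WT at day 2. At day 0 they were 9 with no filter, 0 without trend and robust, 0 with only the groups compared, 8 with the replicate block and 0 at 0.01. For the difference between changes they were 287 after quantile normalization, 275 with no filter, 202 with the mean of probe sets, 77 without trend and robust, 286 with the replicate block and 34 at 0.01. Leaving out each replicate gave 777 to 1253 genes in KO livers, 880 to 1456 in WT livers, 408 to 979 between KO and WT at day 2, 7 to 134 at day 0 and 57 to 698 for the difference between changes.

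With the replicate number as a block, the members called were 5 in KO livers, 8 in WT livers, 5 between KO and WT at day 2, 0 at day 0 and 1 for the difference between changes. The genes called were 1019, 1411, 1137, 8 and 286 in the same order. Deviations of same-numbered arrays correlated at -0.011 at day 0 and at 0.035, 0.026 and 0.003 at day 2. Deviations within a group sum to 0, and a small shared effect would also give low values. These correlations therefore cannot decide whether the numbers pair the samples. Without a day 0 array its group has a single one, whose spread is then taken to equal that elsewhere.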
